A study of Homo sapiens with 18 samples.

Results

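The regions described here are 3889 MAX peaks that lay outside protein-coding genes and were found with wild-type MYC and with neither MYC mutant. Each is a peak of the WT list on chromosomes 1 to 22 or X that shared no base with any peak of the 3A or the 7A list, and whose summit lay more than 1000 bp outside the outer ends of every protein-coding gene in RefSeq (hg38). They were 3889 of the 34622 WT peaks and of 87075 peaks in the 3 lists. They were thus chosen by overlap and position in these same lists, so their strength, their width and their lack of a mutant partner are given as a description, with no test. The name holds for protein-coding genes: 28.9% of the summits (1124 of 3889) lay inside a non-coding RefSeq gene.

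The lists come from chromatin immunoprecipitation and sequencing in U2OS, a human osteosarcoma line whose endogenous MYC gene had been knocked out in every group. The cells carried a doxycycline-inducible (Tet-On) MYC transgene in wild-type form (WT) or in a mutant form that the labels call 3A or 7A. Cells with 3A, 7A or WT MYC received Dox at 1 µg/ml for 24 h, or PBS over the same time, and 10% mouse NIH3T3 cells were added as a reference genome. Each of these 6 groups had 2 biological replicates of the MAX immunoprecipitation, 12 libraries in all, beside 6 inputs. The labels' antibody field names MAX but their protocols describe an immunoprecipitation with anti-FLAG, so which protein was pulled down rests on the field and the titles. The deposited data are 1 peak list per MYC form, and no list separates replicates or Dox from PBS. No difference between MYC forms could therefore be tested, and every interval below is a 95% interval that covers counting error only.

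MAX is the obligate dimer partner of MYC. Together they bind DNA through basic helix-loop-helix leucine zipper domains, with the E-box CACGTG as the preferred site, and MAX also pairs with the MXD, MNT and MGA proteins at the same sites. At high MYC levels, binding is known to spread from promoters with strong sites to weaker sites and to enhancers, the distal elements that act on promoters from a distance.

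Sequence was at hand for the few summits that fell in a promoter window of the RefSeq table (GRCh38.p14), which runs from 250 bases before to 50 bases after a gene's start. That was the case for 49 of the 3889 WT-only peaks outside genes (1.26%, 0.934 to 1.66), all at starts of long non-coding RNA genes. It was so for 273 of the 6782 peaks outside genes that had a partner in both mutant lists (4.03%, 3.57 to 4.52), the group they are set against throughout. Within 100 bp of the summit, CACGTG stood in 11 of the 49 windows (22.4%, 11.8 to 36.6), against 45 of the 273 (16.5%, 12.3 to 21.4). These intervals overlap. Of all 34943 promoter windows of distinct position, 7.23% held CACGTG anywhere in their 300 bases. Of the 12937 windows not assigned to a protein-coding gene it was 5.39%. Both strands were read, and CACGTG is its own reverse complement. The wider set CACGTG or CACGCG stood within 100 bp of the summit in 26.5% of the 49 windows and in 31.5% of the 273. A match is a description of the letters and does not show binding to them.

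The windows below show the 6 strongest of these 11 WT-only peaks, each written along the strand of its gene, with CACGTG in capitals.
LOC105376311 (chr9:134475405-134475704, plus strand): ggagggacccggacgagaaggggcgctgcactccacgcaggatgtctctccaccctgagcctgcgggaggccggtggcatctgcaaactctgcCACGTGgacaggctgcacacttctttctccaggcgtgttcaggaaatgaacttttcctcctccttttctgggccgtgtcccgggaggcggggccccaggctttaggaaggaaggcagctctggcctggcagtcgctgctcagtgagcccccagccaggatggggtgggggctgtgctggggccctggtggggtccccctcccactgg
LOC105376369 (chr10:4246796-4247095, plus strand): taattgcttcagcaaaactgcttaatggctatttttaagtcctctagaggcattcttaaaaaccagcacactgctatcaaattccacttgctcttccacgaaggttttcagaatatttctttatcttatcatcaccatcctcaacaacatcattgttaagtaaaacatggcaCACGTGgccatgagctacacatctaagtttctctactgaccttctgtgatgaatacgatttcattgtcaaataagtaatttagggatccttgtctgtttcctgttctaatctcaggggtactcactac
LOC105372140 (chr18:57901894-57902193, minus strand): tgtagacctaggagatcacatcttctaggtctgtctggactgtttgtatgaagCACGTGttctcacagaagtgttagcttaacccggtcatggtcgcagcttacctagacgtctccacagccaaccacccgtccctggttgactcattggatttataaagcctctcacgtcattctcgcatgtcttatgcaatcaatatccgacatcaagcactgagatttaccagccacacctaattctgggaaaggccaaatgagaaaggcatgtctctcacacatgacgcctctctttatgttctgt
LOC101927823 (chr9:89817593-89817892, plus strand): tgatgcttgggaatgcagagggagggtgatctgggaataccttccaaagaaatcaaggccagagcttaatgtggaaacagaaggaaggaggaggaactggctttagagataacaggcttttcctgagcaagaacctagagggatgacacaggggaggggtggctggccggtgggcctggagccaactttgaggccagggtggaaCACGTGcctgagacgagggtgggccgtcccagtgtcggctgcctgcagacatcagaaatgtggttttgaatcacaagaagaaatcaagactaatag
LOC105373429 (chr2:11407047-11407346, plus strand): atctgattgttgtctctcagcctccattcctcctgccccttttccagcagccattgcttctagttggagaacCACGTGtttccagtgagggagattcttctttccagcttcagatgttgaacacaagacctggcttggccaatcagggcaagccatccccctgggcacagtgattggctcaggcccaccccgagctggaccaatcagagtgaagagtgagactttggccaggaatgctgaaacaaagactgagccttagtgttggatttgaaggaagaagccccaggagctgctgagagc
LOC124900848 (chr4:43763245-43763544, plus strand): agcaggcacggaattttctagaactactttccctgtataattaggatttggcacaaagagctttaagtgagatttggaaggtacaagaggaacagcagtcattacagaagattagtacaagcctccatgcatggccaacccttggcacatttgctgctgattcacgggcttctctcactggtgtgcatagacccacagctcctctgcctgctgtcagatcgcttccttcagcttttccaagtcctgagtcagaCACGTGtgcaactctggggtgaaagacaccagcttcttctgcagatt
All 6 hold starts of uncharacterised long non-coding RNA genes. The summit lay on the E-box itself at LOC105376369 and within 2 bp of it at LOC101927823, 3 bp at LOC105376311 and 7 bp at LOC105373429. At LOC105372140 the gap was 44 bp and at LOC124900848 it was 62 bp. The fold enrichment of these peaks, the authors' ratio of immunoprecipitated to background coverage at the summit, was 11.4 at LOC105376311, 10.4 at LOC105376369, 10.2 at LOC105372140, 8.91 at LOC101927823, 7.28 at LOC105373429 and 5.83 at LOC124900848. Stronger windows without the motif were also present, and 2 are shown because one holds the summit at the very start of its gene and the other belongs to the MYCN locus.
LOC107984552 (chr13:44310992-44311291, plus strand): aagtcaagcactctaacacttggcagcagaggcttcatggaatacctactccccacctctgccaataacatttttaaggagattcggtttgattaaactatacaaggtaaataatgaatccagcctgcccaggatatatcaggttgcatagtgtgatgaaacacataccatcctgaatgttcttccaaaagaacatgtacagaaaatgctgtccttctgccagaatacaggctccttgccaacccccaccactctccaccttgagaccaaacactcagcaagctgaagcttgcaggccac
MYCNUT (chr2:15920149-15920448, plus strand): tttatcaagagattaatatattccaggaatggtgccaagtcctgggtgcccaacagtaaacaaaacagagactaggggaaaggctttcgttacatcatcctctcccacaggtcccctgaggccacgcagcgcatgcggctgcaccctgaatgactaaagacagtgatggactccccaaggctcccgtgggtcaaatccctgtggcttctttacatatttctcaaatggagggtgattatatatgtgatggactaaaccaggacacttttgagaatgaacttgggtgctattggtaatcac
At LOC107984552 (fold enrichment 14.3) the summit was the first base of the gene. MYCNUT, a long non-coding RNA gene upstream of MYCN, had its summit 107 bp before its start and a fold enrichment of 13.8. Neither window holds CACGTG, and each holds 1 match to the general E-box CANNTG, which 68.7% of all promoter windows hold.

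Absence from the mutant lists was more frequent outside genes than at gene ends. Over the whole WT list, 22.9% of peaks (7940 of 34617) had no mutant partner. Outside protein-coding genes the share was 31.7% (3889 of 12258, 30.9 to 32.6), inside gene bodies 29.1% (28.2 to 29.9) and within 1000 bp of a gene end 6.37% (5.91 to 6.84). Peak strength was not matched between these places, and its part in the difference was not tested. When each list was cut to the size of the 7A list by −log10 q, 1601 such peaks were left in place of 3889, and the share was 20.4%. Of these 1601 peaks, 1520 were among the 3889, and all of the 20 strongest were kept. The remaining WT peaks outside genes were overlapped in both mutant lists (6782), in 3A alone (1134) or in 7A alone (453). Coverage differed between the lists as well. At summits outside genes that had a peak in all 3 lists, the median number of fragments, recovered from the deposited values, was 142 in the 3A list and 129 in the 7A list, against 228 in the WT list. The part of this in the count of WT-only peaks was not tested.

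WT-only peaks outside genes were mostly weak and narrow. Their median fold enrichment was 7.45 (7.31 to 7.60), against 11.2 (11.0 to 11.5) for peaks outside genes with a partner in both mutant lists. The middle 50% ran between 5.54 and 10.2, and the extremes were 2.46 and 57.7. Only 2.19% reached a fold enrichment of 20 (1.75 to 2.70), against 21.1% (20.1 to 22.1). The median width was 318 bp (314 to 322), against 538 bp (531 to 550). The median −log10 q was 36.1, against 105.0, and 98.7% of the WT-only peaks reached a −log10 q of 10. The summits were covered by a median of 105 fragments (103 to 106), against 228 (224 to 233). On the scale of the background, the median treatment coverage was 73.1 with a median background of 9. For the peaks with a partner in both mutant lists it was 158.7 with a background of 14. Peaks outside genes with a partner in 3A alone or in 7A alone were nearly as weak, with median fold enrichments of 7.81 (7.54 to 8.05) and 7.22 (6.90 to 7.62) and median widths of 363 bp and 356 bp. WT-only peaks in gene bodies had medians close to those of WT-only peaks outside genes. Their median fold enrichment was 7.59 (7.46 to 7.71), their width 323 bp and their fragments 107. WT-only peaks at gene ends were close in fold enrichment, at 7.67 (7.40 to 8.16), and in fragments, at 110. They were wider, at 410 bp (382 to 432).

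**Figure D1:**
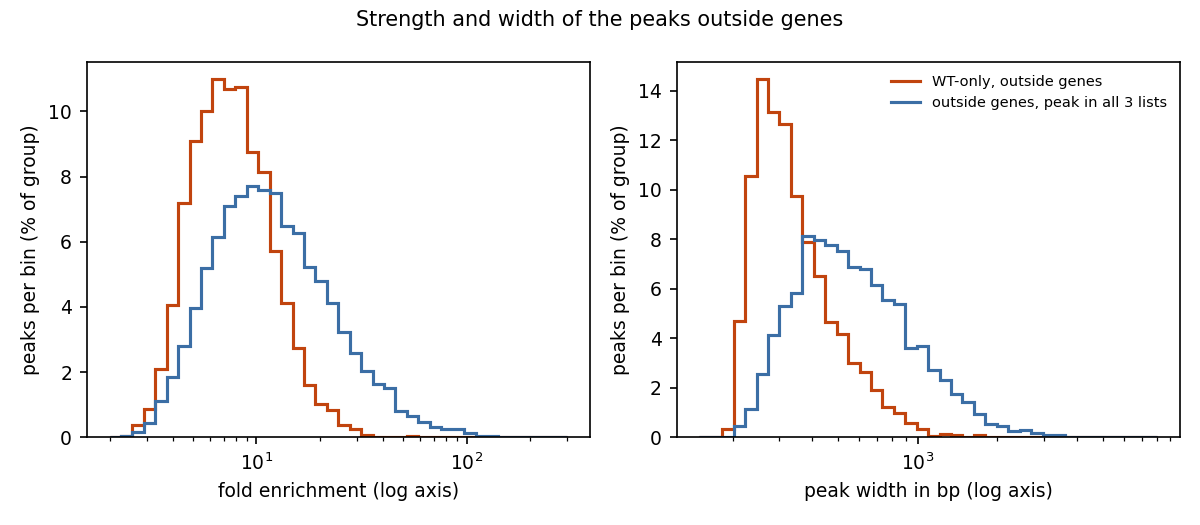
Fold enrichment (left) and width in bp (right) of peaks outside protein-coding genes, both on log axes, as a percentage of each group per bin. WT-only peaks (3889, orange) lie to the left of peaks found in all 3 lists (6782, blue), with medians of 7.45 against 11.2 in fold enrichment and 318 bp against 538 bp in width, and the groups overlap widely.

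The stronger a WT peak outside genes, the less often it lacked a mutant partner. The share was 47.5% (44.9 to 50.1) below a fold enrichment of 5, 42.2% (40.4 to 44.0) between 5 and 7.5, and 37.7% (35.7 to 39.7) between 7.5 and 10. It was 28.3% (26.6 to 30.1) between 10 and 15 and 15.7% (13.6 to 17.9) between 15 and 20. From 20 to 30 it was 7.82% (6.18 to 9.74), and at 30 or more 12 of 646 peaks, or 1.86% (0.963 to 3.22), had no partner. No 2 neighbouring intervals overlapped.

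**Figure D2:**
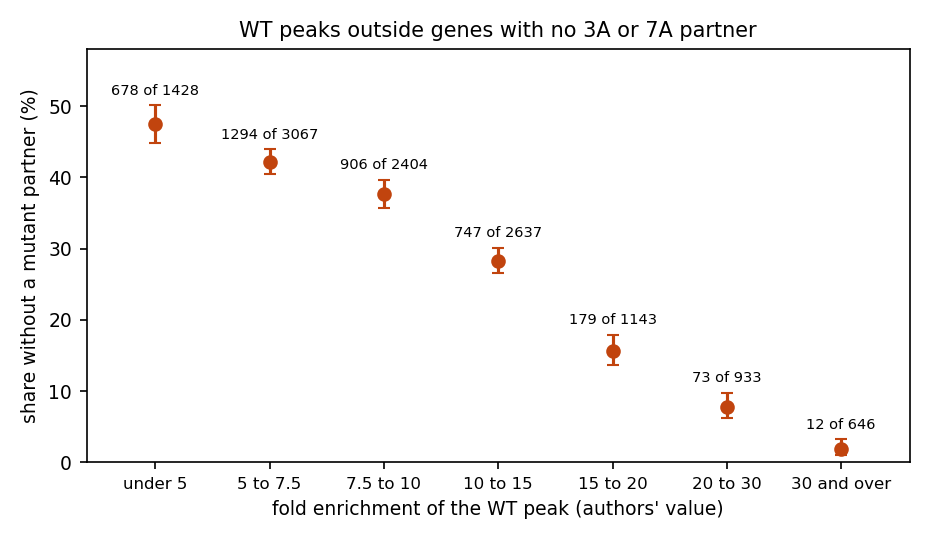
Share of WT peaks outside protein-coding genes that had no 3A or 7A partner, in % with 95% Clopper-Pearson intervals, by the fold enrichment of the WT peak; the counts stand above the points. The share is 47.5% in the weakest bin and 1.86% in the strongest.

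The peaks nearest to the borders of the rule are given for overlap and for gene distance. Closeness to the calling threshold of the mutant lists, below which a site counts as absent, was not examined. Among the smallest gaps between a WT-only peak outside genes and a mutant peak were 148 bp near KCNA10, a potassium channel gene, and 157 bp within the long non-coding gene DIRC3. On the other side, the smallest overlaps of WT peaks that did have a partner were 142, 164 and 170 bp. The members closest to a protein-coding gene lay 1001 bp from CNTFR, 1018 bp from ANGEL1 and 1038 bp from RNF17. The WT-only peaks just left out lay 999 bp from ITIH4, 988 bp from TMEM59L and 965 bp from ABT1.

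The 20 strongest members had fold enrichments between 26.9 and 57.7. The strongest of all lay on chromosome 1 at 1907062 to 1907807, inside the long non-coding gene LOC124903822 and 7670 bp upstream of CALML6, a calmodulin-like gene. Its fold enrichment was 57.7 with 496 fragments at the summit, its −log10 q was 486.5, and the nearest mutant peak was 597 bp away. The peak that followed, on chromosome 3 at 142279801 to 142280319, had a fold enrichment of 55.6 and lay 26452 bp from XRN1, the main cytoplasmic 5′ to 3′ exoribonuclease, with no mutant peak within 54037 bp. On chromosome 19, the peak at 1443897 to 1444461, with a fold enrichment of 49.9, lay 2033 bp upstream of APC2, a relative of the Wnt pathway gene APC. Of these 3 peaks, only the first had a mutant peak within 1000 bp.

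The next peaks differed widely in how far they lay from genes and from mutant peaks. On the X chromosome, at 43177354 to 43177678, a peak of fold enrichment 42.6 lay inside PINCR, a long non-coding RNA gene induced by p53, 399341 bp from the nearest protein-coding gene and 421104 bp from any mutant peak. A peak of 35.8 lay on chromosome 19 downstream of CCDC124, whose product associates with ribosomes. One of 34.8 lay on chromosome 17 at 8220128 to 8220528, between AURKB, a mitotic kinase gene, and CTC1, a telomere maintenance gene, beside LINC00324 and the tRNA gene TRW-CCA1-1. A peak of 33.9 lay 21102 bp upstream of SLC1A5, the glutamine transporter gene, inside the pseudogene HNRNPMP2. The peaks that came then had PRM1 (protamine, 31.7), MAP2K3 (an activator of p38 kinase, 31.4) and EDN3 (endothelin 3, 31.3) as nearest genes. They lay 30638 bp from PRM1, 4465 bp from MAP2K3 and 76852 bp from EDN3.

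The rest of the 20 had neighbours of many kinds. Developmental transcription factors were the nearest genes of 3 of them: ZIC1 with a fold enrichment of 30.9, RUNX3 with 28.4 and SALL3 with 28.4. The peak of ZIC1 was 238399 bp from the gene and 1109858 bp from any mutant peak. That of SALL3 was 252983 bp from its gene and that of RUNX3 38617 bp. ALG10, a gene of N-glycan assembly, had 30.6, CALCA, the calcitonin gene, 28.8, and a peak inside DANCR, a long non-coding RNA gene, 28.5. ZNF696 followed with 28.2, CCDC112 with 28.1, UQCRFS1, a subunit gene of respiratory complex III, with 27.1, and WDFY1 with 26.9. These are nearest genes only: the peak of UQCRFS1 lay 846516 bp from it and that of ALG10 319182 bp. The distance was 52873 bp for CCDC112, 34042 bp for CALCA, 6616 bp for ZNF696 and 2703 bp for WDFY1. Of the 20, 7 lay at a non-coding gene, 7 within 10000 bp of a protein-coding gene and 5 over 100000 bp from one. A mutant peak lay within 1000 bp of 4 of them and within 10000 bp of 11.

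The widest member reached 2944 bp, on chromosome 19 at 1265137 to 1268080, 2196 bp upstream of CIRBP, a cold-inducible RNA-binding protein gene, with a fold enrichment of 23.7. The other wide ones were 1882 bp near PTCH1, the hedgehog receptor gene, 1724 bp near DRD1, a dopamine receptor gene, 1677 bp near ZSWIM4 and beside MIR23AHG, the host gene of miR-23a, and 1667 bp near ERC1. Their summits lay 60295 bp from PTCH1, 90693 bp from DRD1, 11498 bp from ZSWIM4 and 35016 bp from ERC1. Apart from the peak at CIRBP and that at ZSWIM4 (15.5), these wide peaks were of ordinary strength, with fold enrichments of 6.67, 8.20 and 8.63.

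The members lay farther from protein-coding genes than peaks with a partner in both mutant lists did. The median distance was 48759 bp (45220 to 52256), against 33953 bp (32151 to 35703) for these shared peaks. Peaks outside genes with a partner in 3A alone, at 41447 bp (36856 to 47922), or in 7A alone, at 49317 bp (36824 to 58314), had intervals that overlap that of the members. Of the members, 18.9% (17.7 to 20.2) lay between 1000 and 10000 bp from a gene, against 22.8% (21.8 to 23.8). Between 100000 and 500000 bp the shares were 28.5% (27.1 to 29.99) and 22.1% (21.1 to 23.1), and beyond 500000 bp 4.68% (4.04 to 5.39) and 2.57% (2.20 to 2.97). Where the table gives the strand of the nearest gene, 52.7% of the members (1581 of 3002) lay on its upstream side, against 53.1% of the shared peaks.

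At like strength the median distance still differed, while the intervals of the share close to a gene overlapped. Between a fold enrichment of 10 and 15, 747 members had a median distance of 48084 bp (40911 to 55496), against 35538.5 bp (31654 to 38212) for 1582 shared peaks. Within 10000 bp of a gene lay 19.1% of these members (16.4 to 22.2) and 23.9% of these shared peaks (21.8 to 26.1). In that range the members were still narrower, at 325 bp against 566 bp, and had a median of 120.5 fragments against 247, so that depth was not matched. The part of depth in the difference in distance was not tested.

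**Figure D3:**
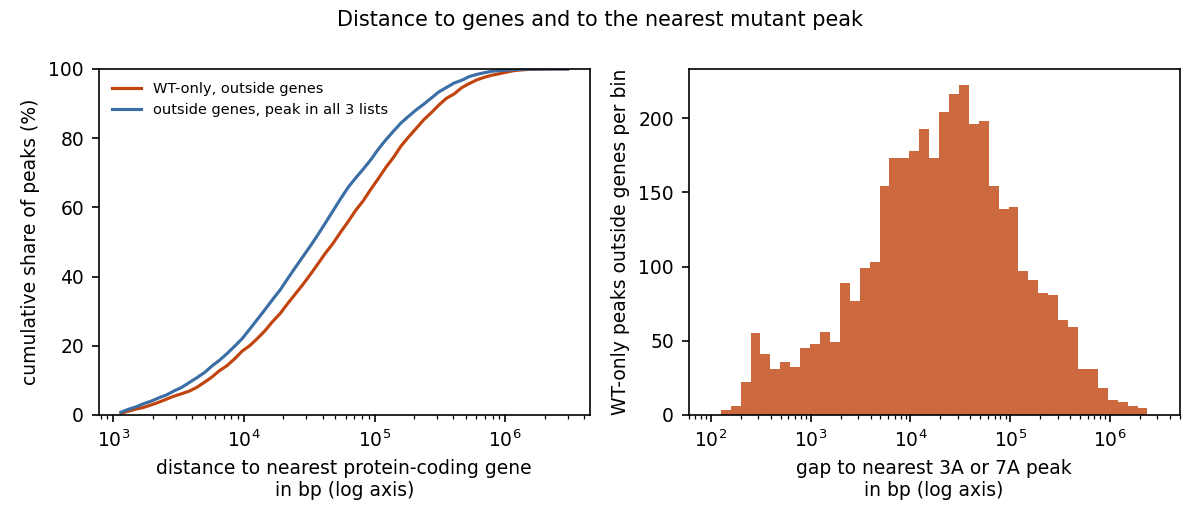
Left, cumulative share of peaks (%) by distance from the summit to the nearest protein-coding gene in bp on a log axis, for WT-only peaks outside genes (orange) and peaks outside genes in all 3 lists (blue); the orange curve runs to the right, with medians of 48759 against 33953 bp. Right, number of WT-only peaks outside genes per bin of the gap to the nearest 3A or 7A peak in bp on a log axis, with a median of 22213 bp.

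The 5 members farthest from any protein-coding gene were spread over 4 chromosomes. The farthest, on chromosome 4 at 33716030 to 33716506, was 2289077 bp from ARAP2 and had a fold enrichment of 22.9. Another on chromosome 4 lay 1823880 bp from ARAP2, inside LINC02484 (7.69). The others lay 2008526 bp from PIK3C3 on chromosome 18 (7.20), 1548394 bp from NCAM2 on chromosome 21 (6.95) and 1471772 bp from UQCRFS1 on chromosome 19 (4.04).

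The gaps between members and mutant peaks are a description, because the rule left out every overlap. The median gap to the nearest mutant peak was 22213 bp (20444 to 23660). A mutant peak lay within 500 bp of 4.09% of the members (3.49 to 4.76), within 10000 bp of 33.6% (32.1 to 35.1) and within 100000 bp of 81.9% (80.7 to 83.1). Members stood alone within the WT list more often than peaks with a partner in both mutant lists. Another WT summit lay within 10000 bp of 41.5% of the members (39.9 to 43.1), against 50.5% of these shared peaks (49.3 to 51.7). For peaks outside genes with a partner in 7A alone it was 43.9% (39.3 to 48.6), which overlaps the members' interval, and with one in 3A alone 47.0% (44.1 to 49.96). Between a fold enrichment of 10 and 15 the shares were 38.0% (34.5 to 41.6) and 51.3% (48.8 to 53.8). Where there was such a neighbour, it was itself without a mutant partner in 33.2% of cases (30.9 to 35.6) for members, against 22.3% (20.9 to 23.7) for shared peaks. For peaks outside genes with a partner in 7A alone it was 28.1% (22.01 to 34.9). For WT-only peaks in gene bodies it was 29.6% (27.3 to 31.98). Both of these intervals overlap that of the members. With a partner in 3A alone it was 25.7% (22.04 to 29.6), which does not overlap it. Another member lay within 10000 bp of 15.3% of the members.

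The members were spread over 2267 stretches between neighbouring protein-coding genes, and 1479 of these held a single member. Only 8 stretches held 10 or more, 105 members in all. The fullest, between C8orf90 and TSNARE1 on chromosome 8, held 21 members among 30 WT peaks over 693350 bp, with a strongest fold enrichment of 14.2. Between CRYBA4, a lens crystallin gene, and MN1 on chromosome 22 there were 17 members, but among 72 WT peaks, of which 54 had a partner in both mutant lists. The members there were weak, with a median fold enrichment of 4.73. Between SPDYE21 and AUTS2 on chromosome 7, 14 of 22 WT peaks were members, with a median of 10.6. Between SOCS6 and CBLN2 on chromosome 18 it was 12 of 23, and between KHDRBS3 and FAM135B on chromosome 8 it was 11 of 17. These 5 stretches were picked for their number of members, so their shares of members are a description only. Members made up 70.0% of the WT peaks in the C8orf90 stretch, 64.7% at KHDRBS3 and 63.6% at SPDYE21. The SOCS6 stretch had 52.2% and the CRYBA4 stretch 23.6%, and the share over all stretches was 31.7%.

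Chromosomes differed in the share of WT peaks outside genes that lacked a partner. It was highest on chromosome 18 at 38.8% (33.2 to 44.6), chromosome 13 at 38.7% (33.3 to 44.4) and chromosome 4 at 38.5% (33.8 to 43.4). It was lowest on chromosome 15 at 24.8% (20.7 to 29.2), chromosome 22 at 25.6% (21.1 to 30.4) and chromosome 17 at 26.3% (22.5 to 30.5). Of 23 chromosomes, 4 had an interval wholly above 31.7%, the fourth being chromosome 8 at 35.6% (31.9 to 39.4), and 3 had one wholly below it.

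**Figure D4:**
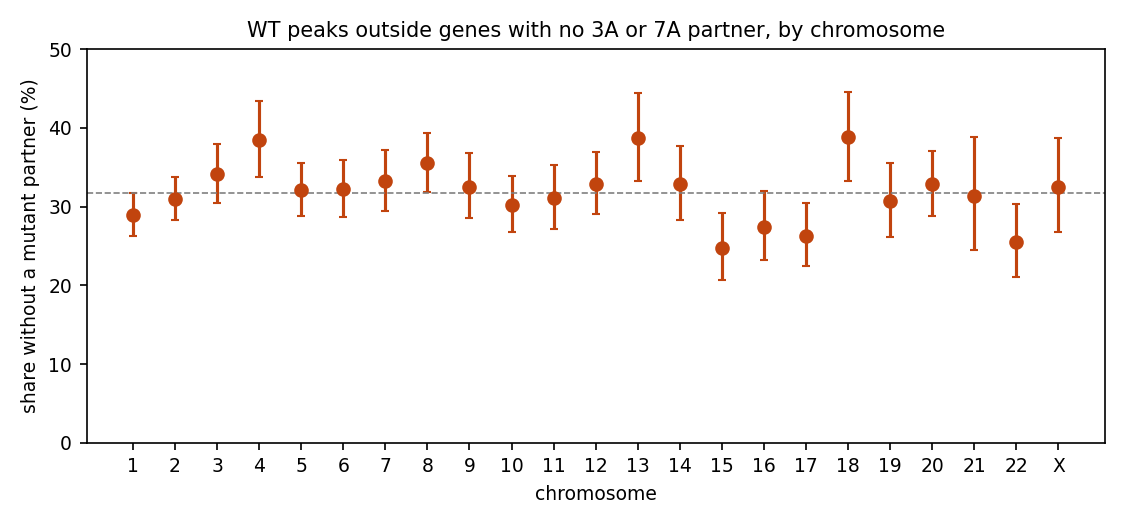
Share of WT peaks outside protein-coding genes with no 3A or 7A partner, in % with 95% Clopper-Pearson intervals, on each chromosome; the dashed line marks 31.7%, the share over all. Chromosomes 4, 8, 13 and 18 lie above the line and 15, 17 and 22 below it with their whole intervals.

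About 1 in 3 members lay at a non-coding gene, as did shared peaks. The summit was inside or within 1000 bp of one for 33.2% of the members (31.7 to 34.7), against 35.7% of the shared peaks (34.6 to 36.9). At a fold enrichment of 10 to 15 the shares were 34.9% (31.5 to 38.5) and 33.8% (31.4 to 36.1). Long non-coding RNA genes made up most of this, at 30.7% and 32.8%, and pseudogenes 2.24% and 2.60%. Beside those among the 20 strongest, the leading members at non-coding genes were one in IGFBP-AS1, 1571 bp upstream of IGFBP5, an insulin-like growth factor binding protein gene (26.1), one in ITGB1-DT (25.9) and one in SNHG30, a snoRNA host gene (25.7). Genes named as divergent transcripts of a neighbour (-DT), singled out after their values were seen, held 50 members, or 1.29%, against 1.30% of the shared peaks. They were 41 genes, and ITGB1-DT, SMAD3-DT, CAV2-DT and SLC12A2-DT, among others, held 2 members each. A member in JUN-DT had a fold enrichment of 8.59 and lay 102185 bp upstream of JUN, and one in KLF2-DT had 9.66.

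Genes of small structured RNAs were rarely among them. At tRNA genes, which RNA polymerase III transcribes, there were 20 members (0.514%, 0.314 to 0.793), against 58 shared peaks (0.855%, 0.650 to 1.10), and these intervals overlap. Of the 20, 11 were on chromosome 6, which holds the large tRNA gene cluster beside the histone genes. The strongest were at TRW-CCA1-1 (34.8), TRK-CTT3-1 (18.5), TRS-AGA4-1 (13.5), TRR-TCG2-1 (12.5), TRV-AAC1-4 (10.8) and TRX-CAT1-3 (10.2). TRV-AAC1-4 had another member 892 bp away (9.77), and TRP-AGG2-2 (9.16), TRS-AGA2-3 (8.11) and TRC-GCA17-1 (8.00) completed the 10 strongest. At miRNA genes there were 2 members (0.0514%, 0.00623 to 0.186), at MIR5087 (6.82) and MIR4299 (4.49), against 23 shared peaks (0.339%, 0.215 to 0.508). These intervals do not overlap, but the members' share rests on 2 peaks and strength was not matched. Peaks with a partner in 3A alone had 3 of 1134 (0.265%, 0.0546 to 0.771). Those with one in 7A alone had 0 of 453 (up to 0.811%), and both intervals overlap that of the members. No member lay at a snoRNA gene, which allows a share of up to 0.0771% by the limit of 3 counts and 0.0948% by the Clopper-Pearson bound, against 7 shared peaks (0.103%, 0.0415 to 0.213). The Clopper-Pearson intervals overlap. Peaks with a partner in 3A alone had 1 of 1134 at a snoRNA gene, and those with one in 7A alone 0 of 453.

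Some 10.1% of all protein-coding genes (2010 of 19974) were the nearest gene of at least 1 member within 100000 bp, and 2597 members had such a gene. For shared peaks it was 16.1% of genes. Most of the 2010 genes, 1576, had a single member. PRICKLE2, a planar cell polarity gene, and C8orf90 had 6 each, the most of any gene. Gene spacing was not matched in the shares that follow, and nearness does not show which gene a site acts on.

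Within 100000 bp, 4 of the 9 gene lists had members near more of their genes than the 10.1% of all genes, with intervals above that value, and 2 of the 4 did not hold within 50000 bp. Shared peaks also exceeded their own share of all genes, 16.1%, on each of these 4 lists. They were near 68.75% of TGF-beta and BMP targets, 67.9% of immediate early genes and 46.2% of bone and matrix genes. For YAP and TEAD targets it was 11 of 22. A share above that of all genes was thus not particular to WT-only peaks. YAP and TEAD target genes, which respond to the Hippo pathway, had 10 of 22 (45.5%, 24.4 to 67.8), against 11 of 22 for shared peaks. The strongest were LATS2, a Hippo kinase gene (fold enrichment 12.6), ANKRD1 (11.1), TGFB2 (9.55) and RBMS3, with 4 members led by one of 9.25. TGF-beta and BMP target genes had 5 of 16 (31.3%, 11.0 to 58.7), against 11 of 16. TGFBI, an extracellular matrix gene, came first with 19.2, then ID2, an inhibitor of helix-loop-helix factors, whose 4 members reached 11.8, PMEPA1 (6.19) and SMAD6 (6.12). Within 50000 bp the share was 25.0% (7.27 to 52.4), an interval that includes the 8.26% of all genes at that distance. Bone lineage and extracellular matrix genes had 7 of 26 (26.9%, 11.6 to 47.8), against 12 of 26. They were led by the collagen genes COL6A3 (14.6), COL1A1 (10.7) and COL1A2 (10.2) and by TNC, the tenascin C gene (8.00). Within 50000 bp the bone and matrix share was 11.5% (2.45 to 30.2), which also includes 8.26%.

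Immediate early genes, which growth factors switch on without new protein synthesis, had 7 of 28 (25.0%, 10.7 to 44.9), against 19 of 28 (67.9%) for shared peaks. The strongest members were near IER2 (15.6), KLF2 (9.66), CCN2, also a YAP target (6.46), and KLF4 (5.95). The interval includes neither 67.9% nor, narrowly, 10.1%.

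The other lists were closer to the background, and their intervals include 10.1%. Genes of the MAX network had 3 of 13 (23.1%, 5.04 to 53.8), against 6 of 13. These were MYCN, the neural MYC paralog, with 2 members led by one of 14.96 that lay 25824 bp upstream, MXI1, a MYC antagonist (10.3), and MAX itself, with 2 members led by one of 7.31 at 28958 bp upstream. Cell adhesion and cytoskeleton genes had 4 of 25 (16.0%, 4.54 to 36.1), against 11 of 25. The strongest member of each lay on the upstream side: ITGB1, the integrin beta 1 gene (25.9), MYH9, non-muscle myosin (22.4), ACTN1, alpha-actinin (8.09), and TPM1, tropomyosin (5.76). Over all members whose nearest gene had a strand, 52.7% (1581 of 3002) lay on that side, so 4 genes show no trait of the list. The p53 target genes had 4 of 25, against 8 of 25. They were PMAIP1, which encodes the apoptosis factor NOXA (15.1), CCNG1 (7.62), PHLDA3 (5.26) and CDKN1A, the p21 gene (4.63).

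MYC target genes of growth had 5 of 50 (10.0%, 3.33 to 21.8), against 11 of 50 for shared peaks. ENO1, a glycolytic enzyme gene (13.2), MTHFD1L, of mitochondrial one-carbon metabolism (11.0), ODC1, the first enzyme of polyamine synthesis (6.64), and CCND2, a D-type cyclin (5.24), were the strongest. Lineage genes of other tissues, taken as genes that bone-derived cells should not use, had 5 of 54 (9.26%, 3.08 to 20.3), against 12 of 54. MITF, the melanocyte factor (17.8), SST, somatostatin (7.87), PTPRC (7.38) and OLIG2 (5.39) led. Both of these shares were close to that of all genes. In each of the 9 lists fewer genes were nearest to a member than to a shared peak, as over all genes, where the shared peaks are also more numerous.

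**Figure D5:**
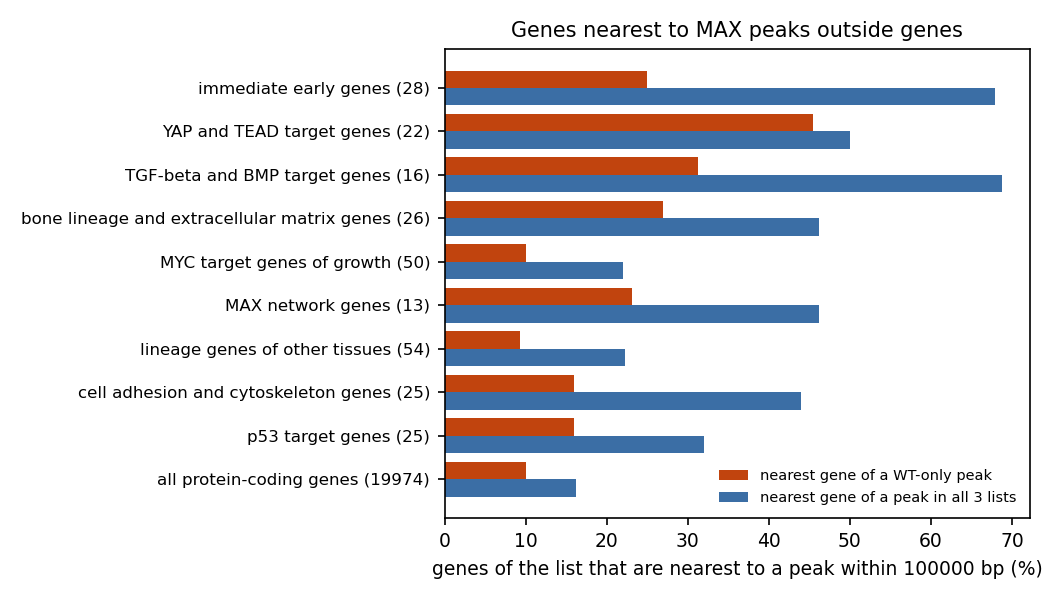
Share of the genes of each list (% of listed genes, number in brackets) that were the nearest protein-coding gene, within 100000 bp, of a WT-only MAX peak outside genes (orange, upper bar) or of a peak outside genes in all 3 lists (blue, lower bar), with all protein-coding genes at the bottom. YAP and TEAD target genes are highest for WT-only peaks, at 45.5% against 10.1% of all genes. Peaks in all 3 lists also exceed their own share of all genes, 16.1%, in each gene list.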

How the data were processed

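The data are the 3 peak lists of the MAX immunoprecipitations, which the authors deposited in narrowPeak layout without a header. The deposited score is a whole number per peak. The deposited fold enrichment is a linear ratio at the summit, and the authors also gave a −log10 p and a −log10 q per peak. Per the submitters' processing notes, which give no versions or roles, the tools were MACS2, Picard, SAMtools, Bowtie2 and cutadapt and the builds mm10, hg19 and hg38. Pooling, control and spike-in scaling are not given in the sources used here, nor is the depth of the libraries. Positions were read as hg38 and count from 1: 17.8% of WT summits fell in a RefSeq promoter window of GRCh38.p14, against 0.555% of positions 20000 bp downstream. Columns of other samples numbered 0.

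Overlap meant at least 1 shared bp. Distances ran from the summit to outer gene ends (19974 protein-coding and 39124 non-coding genes). Shares have 95% Clopper-Pearson intervals and medians 95% binomial rank intervals. From fold enrichment and −log10 p, treatment and background coverage were solved with MACS2's formulas in 98.5% of the WT list, 95.6% of the 3A list and 98.6% of the 7A list. The WT and 3A lists needed a treatment scale of 0.696 and 0.689, the 7A list 1, and fragments are coverage divided by that scale. Interval, distance and coverage steps were tested on simulated data. All 259 listed genes matched.

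The peaks and gene lists were chosen with earlier results of these data known. Named are the 20 strongest members, the 5 widest, the 5 farthest from a gene, the 5 fullest stretches, the 10 strongest at a non-coding gene, up to 10 at miRNA, tRNA and snoRNA genes, 3 on either side of each threshold, and up to 4 genes per list. An item that this rule names is not reported here. Sequences are RefSeq's. Most members lie outside the sequences used here, and their motifs were not analysed. Tools were matplotlib 3.10.9, SciPy 1.17.1, NumPy 2.4.6 and pandas 2.3.3 under Python 3.11.15. Alternatives were other overlaps, gaps, −log10 q minimums, list lengths, gene distances and gene types.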

Additional observations from a re-analysis of the deposited data

How the results depend on the processing

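No paired analysis was possible because no list separates the replicates, and for the same reason no replicate could be left out. Of 84 alternative values of the 10 results, 64 stayed within the 95% interval of the main value or, for the count, within 1.5 times it. The 64 include the values with mutant peaks within 100 bp as partners. These could not differ, because the smallest gap was 148 bp. Lists of equal length moved most: 1601 peaks, a share without a partner of 20.4%, a median fold enrichment of 10.5, a width of 339 bp, a distance of 40858 bp and another WT peak within 10000 bp for 36.3%. That alternative drops the weaker WT peaks by construction. An overlap of 50% of both peaks gave a share of 34.5% and a width of 324 bp. Counting mutant peaks within 1000 bp as partners gave 29.5%, with a WT neighbour for 37.3%. Distances over 5000 bp gave a median of 59499 bp, and over 10000 bp 72671 bp, a share of 32.6% and a WT neighbour for 37.3%, the distances by construction. With genes of every RefSeq type 2599 peaks were left in place of 3889, which counted as within 1.5 times. The width was then 313 bp, the distance 43962 bp and the share at a non-coding gene 0%, by construction. Any CANNTG stood near 63.3% of the 49 summits. Genes nearest to a member were 8.26% of all within 50000 bp and 12.6% without a limit. The whole promoter window, an alternative chosen after seeing the data, gave the same 22.4% for CACGTG. Where no value shows the cause, the cause was not tested. Depth limits the absence of a partner: a site below a mutant list's threshold counts as absent.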

Other observations

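Peaks found in a single mutant list lay outside protein-coding genes in a share close to the 49.0% (47.9 to 50.1) of WT-only peaks. It was so for 363 of the 800 peaks of the 3A list that overlapped neither other list (45.4%, 41.9 to 48.9) and for 190 of 411 in the 7A list (46.2%, 41.3 to 51.2), against 31.2% of all 3A peaks and 30.2% of all 7A peaks. Their median fold enrichments, which cannot be compared across lists, were 6.95 in 3A and 6.98 in 7A, with median widths of 315 bp and 323 bp. The strongest in 3A lay 7014 bp from ROPN1B, a sperm protein gene, on chromosome 3 at 125990364 to 125990564 (36.2), followed by one 194746 bp from TCF4, an E-box binding factor gene (27.4), and one 3796 bp from PNRC2 (20.4). In 7A the strongest had S100A6, a calcium-binding protein gene (15.6), VRK1 (15.4) and PHACTR1 (14.8) as nearest genes. They lay 26607 bp from S100A6, 1096964 bp from VRK1 and 131284 bp from PHACTR1.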
